A study of Homo sapiens with 6 samples.

Results

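The TCF and LEF transcription factors of the Wnt pathway, together with β-catenin and its scaffolds, were examined in 2 human lymphoma B cell lines. The 8 genes were LEF1, TCF7, TCF7L1, TCF7L2, CTNNB1, AXIN1, AXIN2 and APC, out of 56584 gene symbols named in the library tables, and they were chosen by name and not by their values. LY19Y646F is labelled as expressing EZH2-Y646F constitutively from a CMV promoter, and LY19WT as EZH2 wild type. Each line gave 3 polyA-selected RNA libraries, described as biological replicates, from untreated cells between passages 10 and 15. EZH2 is the methyltransferase of Polycomb repressive complex 2, and Y646F is an altered form of it found in lymphomas. The labels do not say whether a line is a single clone or what the 2 lines were derived from, and both lines were grown in the same medium.

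In the canonical Wnt pathway a scaffold of APC and AXIN holds β-catenin (CTNNB1) for phosphorylation and destruction. When a Wnt ligand binds its receptors, the scaffold is disabled, β-catenin enters the nucleus, and there it binds a TCF or LEF factor already sitting on DNA. Without β-catenin the same factors recruit repressors of the TLE family. LEF1 and TCF7 are known for their work in early lymphocytes: LEF1 in precursor B cells and both of them in developing T cells. AXIN2 is itself a widely used target gene of the pathway.

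LEF1 and CTNNB1 were the 2 abundant single-gene members in both lines, at about the same level in LY19Y646F as in LY19WT within the spread of the libraries. TCF7L2 was lower in LY19Y646F in each pair of libraries of the same number, and its call depended on whether that number was modelled. The rows that name AXIN2 and APC were higher in LY19Y646F in every library, but each of these rows also names other genes. With such shared rows counted, the lines did not overlap for 44.7% of 17294 genes. TCF7 was listed at 0 in all 6 library tables, and TCF7L1 stayed under 0.3 FPKM. FPKM is the number of fragments per kilobase of transcript and scaled to the mapped fragments of the library, so levels of different genes can be set side by side.

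The start regions shown here are some of those of the factor with the lowest adjusted p among the factors, TCF7L2, and of TCF7, whose level differed between the library tables and the authors' table. They come from RefSeq on GRCh38.p14 and each covers the 250 bases before a transcription start, on the plus strand. Capitals mark a copy of CTTTGTT in either orientation, a spelling of the core that TCF and LEF factors bind, which was added to the search after the data were seen. TCF7L2 window 1 is chr10:112949997-112950246, before the first start of the gene. TCF7L2 window 2 is chr10:113126383-113126632, before a start 176.38 kb inside the gene. TCF7 window 2 is chr5:134123368-134123617, before a start 8.91 kb inside the gene.
TCF7L2 window 1: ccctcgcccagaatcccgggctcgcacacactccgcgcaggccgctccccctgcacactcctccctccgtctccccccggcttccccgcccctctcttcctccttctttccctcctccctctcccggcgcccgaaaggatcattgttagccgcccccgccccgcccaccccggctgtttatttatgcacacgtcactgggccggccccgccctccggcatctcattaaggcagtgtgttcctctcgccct
TCF7L2 window 2: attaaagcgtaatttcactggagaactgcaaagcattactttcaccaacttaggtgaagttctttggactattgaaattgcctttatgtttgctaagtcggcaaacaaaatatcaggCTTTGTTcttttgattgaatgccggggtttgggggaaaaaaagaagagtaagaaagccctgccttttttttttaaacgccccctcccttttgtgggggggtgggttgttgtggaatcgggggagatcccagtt
TCF7 window 2: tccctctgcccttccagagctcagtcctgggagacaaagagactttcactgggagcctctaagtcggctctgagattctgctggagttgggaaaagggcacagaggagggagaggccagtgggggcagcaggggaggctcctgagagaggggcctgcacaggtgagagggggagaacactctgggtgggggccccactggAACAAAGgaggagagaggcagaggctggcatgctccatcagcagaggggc

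The copy stood 133 bases before the start in TCF7L2 window 2, and 50 bases before the start in TCF7 window 2, where it reads AACAAAG on the printed strand. The first start of TCF7L2 had none. TCF7L2 window 3 and TCF7 window 1, which are not printed, had none either, so the printed windows include every copy. In all, 7 of the 8 members had RefSeq entries, with 11 windows between them. CTTTGAA and CTTTGAT, searched on both strands over 300 bases with the first 50 of the transcript included, were in 0 of the 11 windows, against 6.86% of 35116 windows of all genes. With CTTTGTT and CTTTGTA added, 2 of 11 windows held a copy, against 13.8% of all windows. These letters describe the windows only.

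The lines differed widely outside this pathway. Of 10667 genes tested, 33.3% were called by limma at a Benjamini-Hochberg adjusted p under 0.05, 16.7% higher and 16.5% lower in LY19Y646F. The libraries of the lines did not overlap for 48.6% of them. EZH2 measured 70.2, 80.4 and 93.5 FPKM in LY19Y646F and 60.6, 76.5 and 74.7 FPKM in LY19WT, with a limma adjusted p of 0.38, and the tables do not separate mutant from wild-type transcripts. The 6 B cell markers with a row of their own summed to 398 to 769 FPKM in LY19Y646F and 267 to 402 FPKM in LY19WT. The 7 such markers of precursor B cells summed to 96.8 to 127 FPKM in LY19Y646F and 469 to 699 FPKM in LY19WT, with DNTT, VPREB1, RAG2 and SOX4 called lower. MME, of the same list, went the other way, at 84.1, 81.5 and 84.6 FPKM in LY19Y646F and 46.1, 74.3 and 48.3 FPKM in LY19WT. VPREB3 overlapped between the lines, and neither MME nor VPREB3 was called. BLK, a kinase of mature B cells, was at 34.3, 26.4 and 25.6 FPKM in LY19Y646F and under 0.04 FPKM in every LY19WT library. The 2 sets of libraries thus differed in B cell stage markers as well as in the EZH2 label, and the 2 cannot be told apart in this design.

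LEF1, the factor of early lymphocytes, was the dominant TCF/LEF transcript of both lines. Its row (hg19 chr4:108968701-109090112) measured 51.6, 82.6 and 88.4 FPKM in LY19Y646F, and 54.8, 81.7 and 96.5 FPKM in LY19WT. Replicate 1 was the lowest library of each line and replicate 3 the highest, and the lines overlapped throughout. The means were 74.2 ± 19.8 FPKM in LY19Y646F and 77.7 ± 21.1 FPKM in LY19WT (SD, n = 3 each). The difference was -0.07 on the log2(FPKM + 1) scale, with a 95% interval from -0.83 to 0.70 and a limma adjusted p of 0.89. An exact permutation test over the libraries (two-sided) gave p = 0.80, where 0.10 is the lowest p that 3 against 3 libraries can reach. That interval still admits a change of over 1.5-fold in either direction, while the fit with the replicate number as a block gave an SE of 0.064, an interval from -0.26 to 0.13 and a limma adjusted p of 0.46. LEF1 was lower in LY19Y646F in 2 of 3 pairs of the same number. In these bulk libraries a change in the number of cells that express a gene and a change in its RNA per cell cannot be told apart. LEF1 stood between the 82.6 and 89.7 percentile of 7527 tested protein-coding genes in the LY19Y646F libraries and between the 84.6 and 91.8 percentile in the LY19WT libraries. The authors' deposited table, which gives 1 mean per line, has LEF1 at 83.2 FPKM in LY19Y646F and 96.8 FPKM in LY19WT. Its LEF1 locus is 210.8 kb, against 121412 bases for the library row.

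T cells also express LEF1 and TCF7, so T cell markers were read beside them. The 15 T cell markers with a row of their own summed to 2.07 to 2.87 FPKM in LY19Y646F and 28.1 to 29.6 FPKM in LY19WT. Nearly all of the sum in LY19WT was CD247, a receptor signalling chain, at 29.5, 28.0 and 29.3 FPKM. The defining genes CD3D, CD3E and CD3G were listed at 0 in LY19WT, and CD3E, the highest of them, was at 0.736, 0.987 and 1.06 FPKM in LY19Y646F. BCL11B and CD8B were listed at 0 in all 6 libraries. The part of T cell markers in the LEF1 level was not tested. The myeloid list summed to 0.655 to 0.972 FPKM in LY19Y646F and 15.4 to 21.7 FPKM in LY19WT, where LYZ and CD33 carried it. Fibroblast and epithelial markers stayed under 1 FPKM in sum in every library.

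TCF7L2, a factor expressed in many tissues, was low in both lines and lower in LY19Y646F. Its row (hg19 chr10:114709924-114927437) measured 0.495, 2.08 and 1.89 FPKM in LY19Y646F, and 1.82, 4.47 and 3.69 FPKM in LY19WT. Replicate 1 was the lowest in each line, and LY19WT replicate 1 fell within the range of LY19Y646F, so the lines overlapped. The means were 1.49 ± 0.866 FPKM in LY19Y646F and 3.33 ± 1.36 FPKM in LY19WT (SD, n = 3 each), a ratio of 0.448. On the log2(FPKM + 1) scale LY19Y646F minus LY19WT was -0.81 (SE 0.40, interval -1.82 to 0.19), with a limma adjusted p of 0.18 and p = 0.30 by exact permutation. With the replicate number as a block, the SE fell to 0.11 and the limma adjusted p was 0.020, with the difference in the same direction in 3 of 3 pairs. In that blocked fit 36.2% of all tested genes were called. Without replicate 1 of both lines, a choice made after seeing the data, the difference was -0.76 with a limma adjusted p of 0.029, and without LY19Y646F replicate 1 alone it was -0.48 with one of 0.32. Over the alternatives tried that p ranged from 0.020 to 0.39. The authors' deposited table has 1.38 FPKM in LY19Y646F and 4.55 FPKM in LY19WT.

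**Figure D1:**
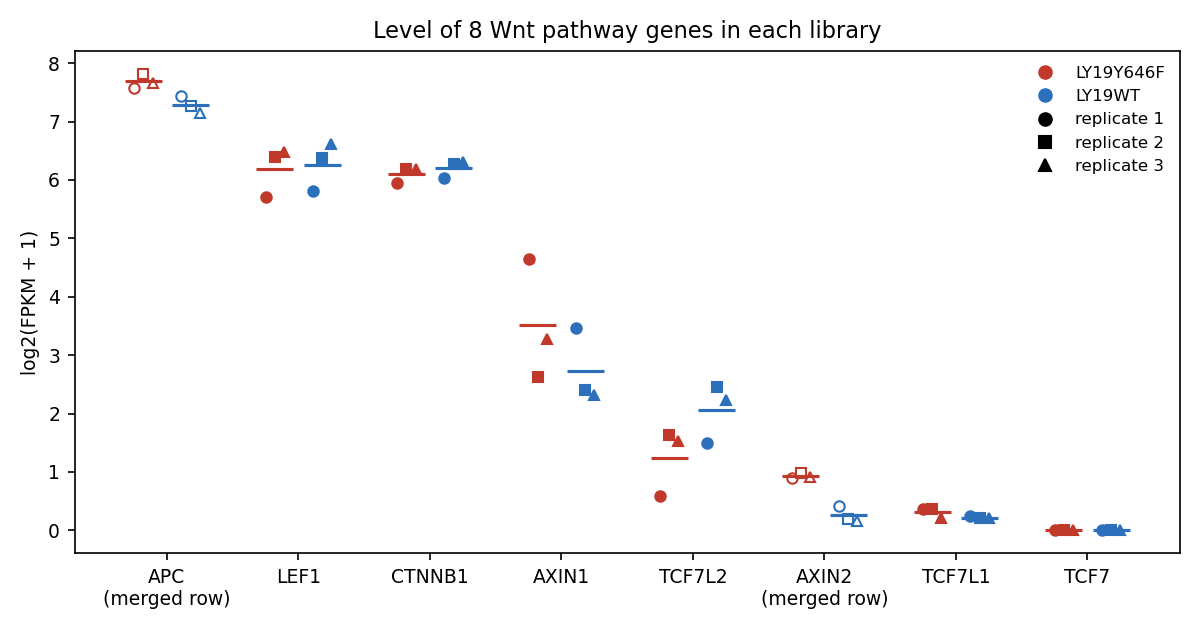
Level of the 8 genes in each library on the log2(FPKM + 1) scale, with LY19Y646F left of LY19WT for each gene. Points are libraries, shaped by replicate number, bars are means, and open points mark rows that name several protein-coding genes. Replicate 1 is the lowest point of each line for LEF1, CTNNB1 and TCF7L2 and the highest for AXIN1.

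Within the factor family, the share of each gene in the summed FPKM of the 4 factors does not depend on how a library is scaled. LEF1 held 98.5%, 97.2% and 97.7% of the sum in LY19Y646F and 96.5%, 94.6% and 96.2% in LY19WT. TCF7L2 held 0.947%, 2.45% and 2.09% in LY19Y646F and 3.20%, 5.18% and 3.68% in LY19WT. Neither share overlapped between the lines, and exact permutation gave p = 0.10 for each, the smallest this design allows. The 2 shares add up to nearly the whole and are a single result. The library tables list TCF7 at 0, so it added nothing to these sums. With TCF7 as the authors' deposited table has it, LEF1 held 87.6% of the sum in LY19Y646F and 86.8% in LY19WT. In the authors' deposited table TCF7 held 10.9% in LY19Y646F and 9.09% in LY19WT, and TCF7L2 held 1.46% in LY19Y646F and 4.08% in LY19WT. That table does not list TCF7L1, and it has no replicates.

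**Figure D2:**
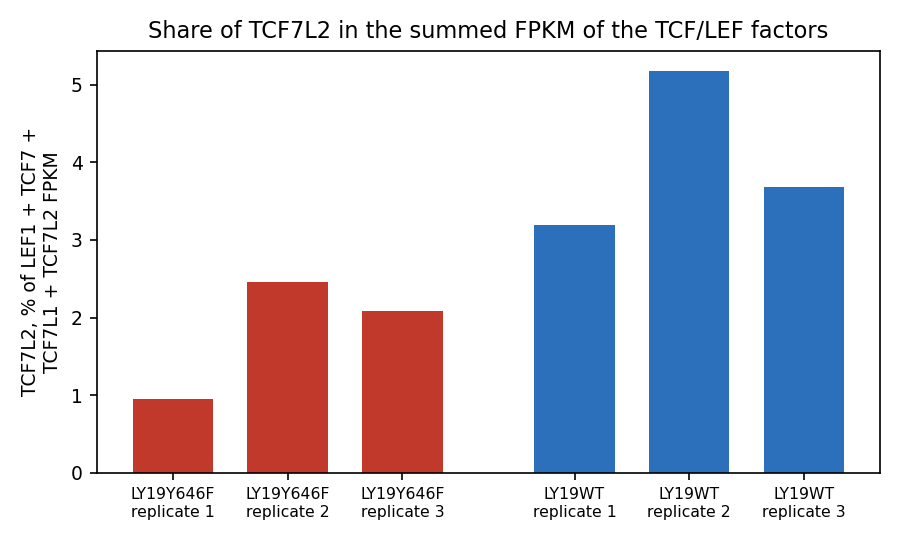
Share of TCF7L2 in the summed FPKM of LEF1, TCF7, TCF7L1 and TCF7L2, in percent, 1 bar per library. The 3 LY19Y646F libraries lie between 0.947% and 2.45%, and the 3 LY19WT libraries lie above them, between 3.20% and 5.18%.

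TCF7, which encodes TCF-1, had 1 row of its own in each library (hg19 chr5:133450402-133487556) and was listed at 0 in all 6. The authors' deposited table instead has TCF7 at 10.4 FPKM in LY19Y646F and 10.1 FPKM in LY19WT, over a locus of 307.5 kb against 37.2 kb for the library row. A row that names CDKL3, PPP2CA and SKP1 overlaps the last 2924 bases of the TCF7 row in every library, at 603, 667 and 637 FPKM in LY19Y646F and 484, 508 and 521 FPKM in LY19WT. PPP2CA and SKP1 encode a phosphatase subunit and a ubiquitin ligase subunit. In LY19WT replicate 2 a row that names VDAC1 also overlapped it, over 16993 bases. TCF7 was not alone in this: 3340 protein-coding symbols were listed at 0 in all 6 library tables. The authors' deposited table held 473 of these, and 117 of the 473 had at least 5 FPKM in both lines there. The library tables therefore give no level for TCF7 that can be compared between the lines, and the role of the overlapping row in the 0 was not tested.

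TCF7L1, a factor known mainly as a repressor in stem cells, was near the floor of the tables (hg19 chr2:85360533-85538289). It measured 0.280, 0.287 and 0.160 FPKM in LY19Y646F and 0.181, 0.153 and 0.152 FPKM in LY19WT. The lines overlapped, the difference was 0.10 on the log2(FPKM + 1) scale, and exact permutation gave p = 0.20. Its mean was below the 0.5 FPKM required for testing, and with no such filter limma gave an adjusted p of 0.29.

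CTNNB1, which encodes β-catenin, was close to LEF1 in level and varied less between libraries. Its row (hg19 chr3:41236328-41301587) measured 61.0, 71.6 and 71.9 FPKM in LY19Y646F, and 64.3, 76.0 and 78.3 FPKM in LY19WT. Replicate 1 was again the lowest of each line and the lines overlapped. The means were 68.2 ± 6.21 FPKM in LY19Y646F and 72.9 ± 7.49 FPKM in LY19WT (SD, n = 3 each). The difference was -0.09 on the log2(FPKM + 1) scale (SE 0.12, interval -0.40 to 0.22), with a limma adjusted p of 0.60 and p = 0.50 by exact permutation. It was lower in LY19Y646F in 3 of 3 pairs, and the blocked interval ran from -0.27 to 0.08 with a limma adjusted p of 0.28. The authors' deposited table has 77.1 FPKM in LY19Y646F and 85.7 FPKM in LY19WT, over a locus of 767.6 kb against 65260 bases for the library row. Among all tested genes, 6.7% had an absolute difference at or below that of LEF1 and 9.4% at or below that of CTNNB1, and the median absolute difference was 0.63 on the same scale. The RNA level says nothing of the β-catenin protein, whose amount is set by its destruction. The ratio of LEF1 to CTNNB1 was 0.845, 1.15 and 1.23 in LY19Y646F and 0.852, 1.08 and 1.23 in LY19WT, with p = 1.00 by exact permutation.

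AXIN1, the constitutive scaffold of the destruction complex, was the least repeatable of the tested members. Its row (hg19 chr16:337440-402673) measured 23.9, 5.18 and 8.69 FPKM in LY19Y646F, and 10.0, 4.28 and 3.97 FPKM in LY19WT. Replicate 1 was the highest library of each line, opposite to LEF1, CTNNB1 and TCF7L2, and the lines overlapped. The means were 12.6 ± 9.95 FPKM in LY19Y646F and 6.09 ± 3.42 FPKM in LY19WT (SD, n = 3 each). The difference was 0.79 on the log2(FPKM + 1) scale (SE 0.61, interval -0.76 to 2.33), with a limma adjusted p of 0.39 and p = 0.30 by exact permutation. It was higher in LY19Y646F in 3 of 3 pairs, and the blocked interval ran from 0.05 to 1.53 with a limma adjusted p of 0.092. In the unblocked fit the difference was 0.23 without LY19Y646F replicate 1 and 1.23 without LY19Y646F replicate 2, with limma adjusted p of 0.73 and 0.23. The authors' deposited table has 13.6 FPKM in LY19Y646F and 9.13 FPKM in LY19WT.

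**Figure D3:**
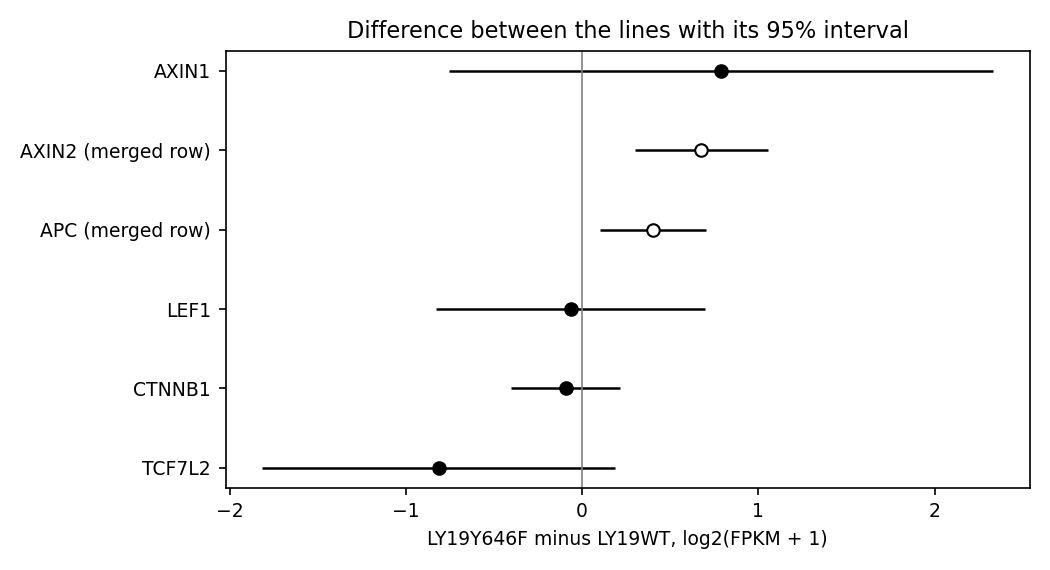
Difference of LY19Y646F minus LY19WT on the log2(FPKM + 1) scale, with its 95% interval from limma without the replicate block. Filled points are the 4 members with a row of their own and open points the rows that merge AXIN2 or APC with other genes. The intervals of the 4 filled points include 0, and those of both merged rows do not.

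AXIN2 shared its row with CEP112, a centrosomal gene, and a non-coding gene in all 6 libraries (hg19 chr17:63524681-64188202). That row measured 0.866, 0.977 and 0.885 FPKM in LY19Y646F, and 0.341, 0.144 and 0.113 FPKM in LY19WT. Every LY19Y646F library was above every LY19WT library, and exact permutation gave the smallest possible p, 0.10. The row was near the floor: the Cufflinks 95% interval of each LY19WT value began at 0 and reached 0.778, 0.466 and 0.482 FPKM. Those of LY19Y646F began at 0.401, 0.540 and 0.418 FPKM. The row averaged 0.554 FPKM over the 6 libraries, with 0.909 FPKM in LY19Y646F and 0.199 FPKM in LY19WT. It thus passed the 0.5 FPKM filter only through LY19Y646F. When merged rows were counted for each gene they name, the difference was 0.68 on the log2(FPKM + 1) scale (SE 0.15, interval 0.30 to 1.05) with a limma adjusted p of 0.026. In that setting 26.1% of 17294 genes were called, 13.2% higher, and the lines did not overlap for 44.7%. With the replicate block the limma adjusted p of the AXIN2 row was 0.080, and with merged rows and 1 library left out it ran from 0.0087 to 0.041. The call therefore rested on leaving the block out.

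Reads of the merged row cannot be assigned to AXIN2 from the deposited table. AXIN2 spans 33.1 kb and CEP112 556.5 kb in GENCODE, of the 663.5 kb of the row. The same tables list short unnamed assembled pieces inside the row, and these lay in different stretches of it in the 2 lines. LY19Y646F had 0, 0 and 0 pieces in the first 33.1 kb of the row, where AXIN2 lies, and 4, 3 and 3 pieces in the rest. LY19WT had 1, 1 and 3 pieces in the first 33.1 kb and 0, 0 and 0 in the rest. The pieces in the AXIN2 stretch of LY19WT were at 0.375 to 2.36 FPKM. In the rest of the row the LY19Y646F pieces reached 123.2 FPKM, about 472 kb from its start, in a piece of 86 bases. These pieces are rows of their own and do not measure the AXIN2 end of the merged row, so no direction is given for AXIN2 itself.

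**Figure D4:**
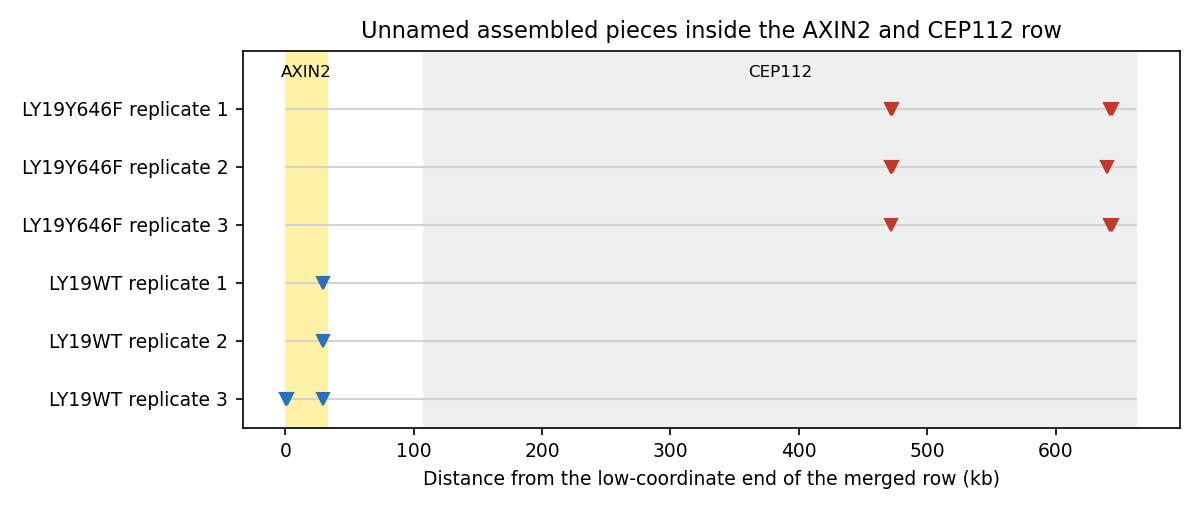
Unnamed assembled pieces within the row that names AXIN2 and CEP112, by distance in kb from its low-coordinate end, 1 line per library. Shading marks the lengths of AXIN2 and CEP112 in GENCODE, set at the low and the high end of the row. The LY19Y646F pieces all lie at 472 kb or beyond, and the LY19WT pieces all lie within the first 33.1 kb.

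APC, the large scaffold that is lost in colorectal cancer, also had no row of its own (hg19 chr5:112043195-112234068). Its row names SRP19, a component of the signal recognition particle, ZRSR1 and non-coding genes, 6 or 7 names in all. The row measured 190, 225 and 201 FPKM in LY19Y646F, and 173, 153 and 141 FPKM in LY19WT, with no overlap and p = 0.10 by exact permutation. With merged rows counted, the lines did not overlap for 44.7% of 17294 genes. The difference was 0.40 on the log2(FPKM + 1) scale (SE 0.12, interval 0.10 to 0.70), with a limma adjusted p of 0.066 when merged rows were counted and 0.11 with the replicate block. That limma adjusted p was 0.0498 without LY19WT replicate 1 and 0.039 without replicate 1 of both lines, and up to 0.16 with 1 library left out. A row that names REEP5 overlaps the APC row and its values differed in the same direction, at 54.3, 81.9 and 62.4 FPKM in LY19Y646F and 16.4, 20.4 and 19.2 FPKM in LY19WT. How much of the APC row came from APC was not tested.

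Of the 8 members, 6 had a row of their own, 4 of these passed the filter, and 0 of those 4 were called by limma, with 0 at an unadjusted p under 0.05. Over all tested genes the share called was 33.3%, and 4 members are too few to set apart from it. With the replicate block 1 of the 4 was called, TCF7L2, against 36.2% of all tested genes. The 2 that did not pass were TCF7 and TCF7L1. TCF7, for which the library tables give no usable level, was left out of the order of the mean levels, which was the same in both lines: the APC row, LEF1, CTNNB1, AXIN1, TCF7L2, the AXIN2 row and TCF7L1. LEF1 and CTNNB1 differed by less than the SD of LEF1. In LY19WT replicate 2 TCF7L2, at 4.47 FPKM, stood above AXIN1, at 4.28 FPKM, so these neighbours were not separated in that line. In LY19Y646F replicate 1 the AXIN2 row, at 0.866 FPKM, stood above TCF7L2, at 0.495 FPKM. The AXIN2 row and TCF7L1 overlapped in LY19WT.

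The 3 tested protein-coding genes nearest to each member in level over the 6 libraries were found by the root mean square difference of log2(FPKM + 1). For LEF1 they were COPB2 at 0.145, NCOA4 at 0.188 and MPZL1 at 0.190. For CTNNB1 they were TM9SF2 at 0.039, CETN3 at 0.072 and OXCT1 at 0.096. For TCF7L2 they were TMEM194B at 0.251, RGPD6 at 0.309 and RGPD5 at 0.323, the last pair being near-identical copies whose reads the counting could split. TM9SF2 followed CTNNB1 closely, with 62.6, 71.9 and 71.8 FPKM in LY19Y646F and 64.2, 71.8 and 76.4 FPKM in LY19WT.

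The rest of the pathway was read from 8 gene lists, with 153 genes in all. Of these 66 were tested, and 12 were called higher and 19 lower in LY19Y646F, together 47.0%, against 33.3% of all tested genes, of which 16.7% were higher and 16.5% lower. The calls in each list below are to be read against those shares. Below, rose and fell mean only higher and lower in LY19Y646F than in LY19WT, with no order of change between the lines. The median difference of the 66 tested genes was -0.26 on the log2(FPKM + 1) scale, against -0.03 over all tested genes. The list of lymphocyte genes that LEF1 or TCF7 act on or with held 2 of the higher and 7 of the lower calls. It had 10 tested genes, 90.0% of them called, so the 47.0% is not a share of Wnt pathway genes alone.

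Upstream of β-catenin, the ligand list had 3 tested genes of 21, with 2 called higher and 0 lower. WNT7B rose, with 22.9, 4.97 and 4.85 FPKM in LY19Y646F and under 0.04 FPKM in each LY19WT library (limma adjusted p = 0.011). WNT10A rose too, with 6.21, 3.18 and 5.87 FPKM in LY19Y646F and 0, 0.0140 and 0.00722 FPKM in LY19WT (limma adjusted p = 0.0010). WNT3 averaged 0.497 FPKM in LY19Y646F and 1.09 FPKM in LY19WT and was not called. Of the 18 receptor genes 6 were tested, with 0 called higher and 3 lower. LRP6, the co-receptor of canonical Wnt signalling, fell to 0.217 ± 0.0317 FPKM in LY19Y646F, against 3.52 ± 0.270 FPKM in LY19WT (SD, n = 3 each, limma adjusted p = 0.00023). LGR6, a receptor for R-spondins, fell to 0.195 ± 0.118 FPKM in LY19Y646F, against 4.63 ± 1.53 FPKM in LY19WT (limma adjusted p = 0.0017). FZD3, a Frizzled receptor, fell less, to 2.11 ± 0.187 FPKM in LY19Y646F against 3.68 ± 0.627 FPKM in LY19WT (limma adjusted p = 0.037). FZD3 kept its call in only 1 of the 6 fits with a library left out, that without LY19WT replicate 1, and the limma adjusted p reached 0.12 in the others. FZD5 had means of 0.696 FPKM in LY19Y646F and 0.878 FPKM in LY19WT and was not called.

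Of the 17 secreted and membrane inhibitors 3 were tested, with 1 called higher and 0 lower. FRZB, a secreted Wnt-binding protein, was at 3.38, 8.02 and 4.46 FPKM in LY19Y646F and was listed at 0 in all LY19WT libraries (limma adjusted p = 0.0018). ZNRF3, a ligase that removes Frizzled receptors and a known Wnt target, averaged 2.10 FPKM in LY19Y646F and 1.78 FPKM in LY19WT. APCDD1, another inhibitor that is also a Wnt target, averaged 0.153 FPKM in LY19Y646F and 1.26 FPKM in LY19WT. Neither was called, and the calls of this list went up to 2 without LY19WT replicate 1 and without LY19WT replicate 2.

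The other genes of the destruction complex and Dishevelled gave 20 tested of 25, with 3 called higher and 1 lower, or 20.0%, and a median difference of -0.03. PPP2R5A, a regulatory subunit of protein phosphatase 2A, rose to 55.0 ± 6.56 FPKM in LY19Y646F, against 27.3 ± 2.02 FPKM in LY19WT (SD, n = 3 each, limma adjusted p = 0.0031). TNKS, the tankyrase that marks AXIN for degradation, rose to 16.1 ± 3.81 FPKM in LY19Y646F, against 6.52 ± 0.539 FPKM in LY19WT (limma adjusted p = 0.0091). USP34, a deubiquitinase that stabilises AXIN, rose to 34.9 ± 7.72 FPKM in LY19Y646F, against 19.7 ± 3.72 FPKM in LY19WT (limma adjusted p = 0.048). FRAT2, which binds the kinase GSK3, fell to 9.93 ± 0.350 FPKM in LY19Y646F, against 13.2 ± 0.0869 FPKM in LY19WT (limma adjusted p = 0.031). TNKS and USP34 thus rose together, although they are known to act on AXIN in opposite directions. FRAT2 and USP34 lie near the threshold, and the calls of this list went down to 2 without LY19Y646F replicate 2, LY19Y646F replicate 3 or LY19WT replicate 3.

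The nuclear partners, which turn a bound TCF or LEF factor on or off, gave 16 tested of 24, with 3 called higher and 5 lower. CTBP2, a corepressor, was listed at 0 in all LY19Y646F libraries and was at 18.3, 10.1 and 9.60 FPKM in LY19WT (limma adjusted p = 0.00034). TLE4, a Groucho corepressor that TCF and LEF factors bind directly, fell to 12.1 ± 1.74 FPKM in LY19Y646F, against 51.5 ± 6.37 FPKM in LY19WT (SD, n = 3 each, limma adjusted p = 0.00042). HDAC2, a histone deacetylase, fell to 44.2 ± 5.54 FPKM in LY19Y646F, against 125.6 ± 11.7 FPKM in LY19WT (limma adjusted p = 0.00080). CTNNBIP1, an inhibitor that keeps β-catenin off TCF factors, fell to 0.305 ± 0.223 FPKM in LY19Y646F, against 2.14 ± 0.722 FPKM in LY19WT (limma adjusted p = 0.010). TBL1X, a part of the corepressor exchange machinery, rose to 11.0 ± 0.557 FPKM in LY19Y646F, against 0.766 ± 0.0199 FPKM in LY19WT (limma adjusted p = 5.0e-05). TLE3, a second Groucho corepressor, is named here because its values stood opposite to those of TLE4, and it was chosen after they were seen. It measured 18.9, 9.89 and 20.7 FPKM in LY19Y646F, and was listed at 0, 0 and 0.00338 FPKM in LY19WT (limma adjusted p = 0.00035). TLE3 and TLE4 were thus both measured in LY19Y646F, with TLE4 alone above 1 FPKM in LY19WT. LEF1 overlapped between the lines, and a link of TLE3 or TLE4 to its level was not tested.

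**Figure D5:**
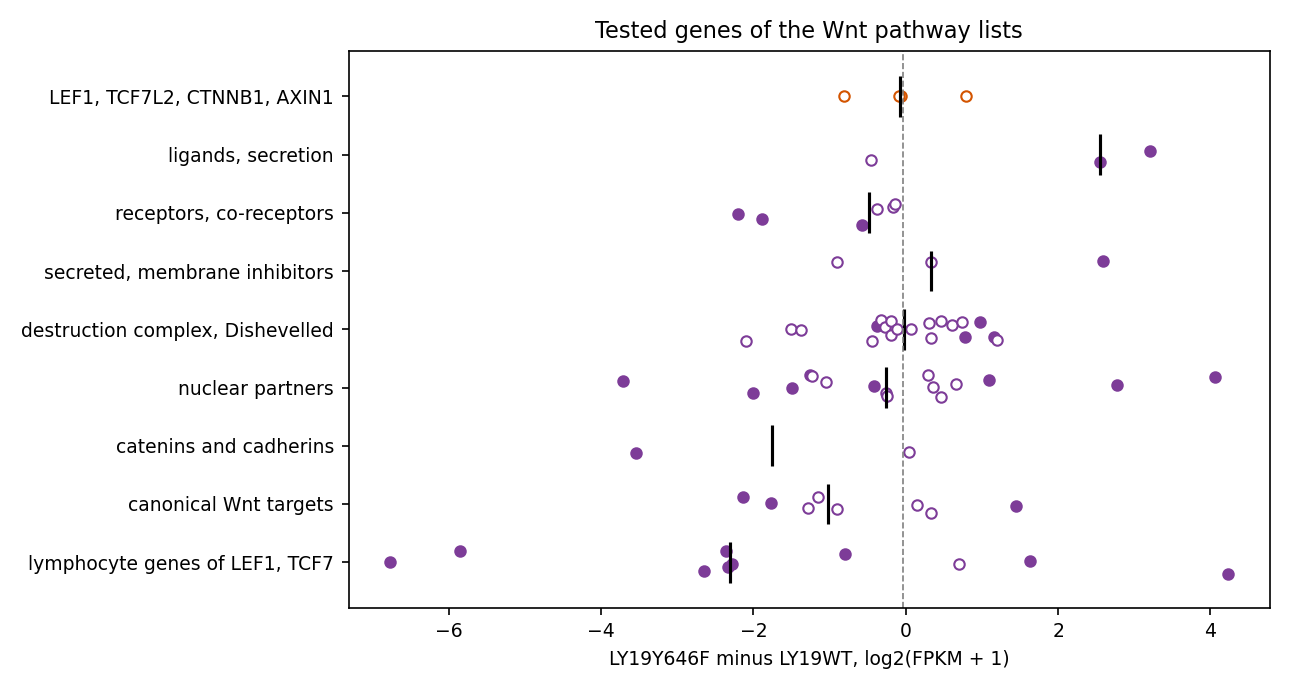
Difference of LY19Y646F minus LY19WT on the log2(FPKM + 1) scale for the tested genes of each list and, in the top row, for the 4 tested members. Filled points were called by limma, short bars are list medians, and the dashed line is the median of all tested genes, -0.03. The 4 members are all open points.

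Of the catenins and cadherins 2 were tested of 10. CTNNA1, the α-catenin that ties β-catenin to actin at cell junctions, fell to 3.69 ± 0.345 FPKM in LY19Y646F, against 53.7 ± 1.16 FPKM in LY19WT (SD, n = 3 each, limma adjusted p = 2.5e-05). CTNNBL1, which carries a catenin-like name but works in splicing, averaged 40.1 FPKM in LY19Y646F and 39.0 FPKM in LY19WT and was not called.

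Of 25 widely cited Wnt target genes 8 were tested, with 1 called higher and 2 lower. ID2, an inhibitor of E proteins, fell to 53.8 ± 6.95 FPKM in LY19Y646F, against 240.6 ± 46.4 FPKM in LY19WT (SD, n = 3 each, limma adjusted p = 0.00059). CD44, an adhesion receptor, was listed at 0 in LY19Y646F and was at 1.87, 2.48 and 2.95 FPKM in LY19WT (limma adjusted p = 0.00088). The authors' deposited table does not list CD44, so this 0 could not be checked against it as that of TCF7 was. SGK1, a kinase, rose to 8.08 ± 2.05 FPKM in LY19Y646F, against 2.30 ± 0.384 FPKM in LY19WT (limma adjusted p = 0.0043). FOSL1, an AP-1 subunit, averaged 0.131 FPKM in LY19Y646F and 1.94 FPKM in LY19WT, with a limma adjusted p of 0.051. The other 4 tested targets, among them ZNRF3 and APCDD1, were not called. The list therefore held calls in both directions, and many of its genes answer to other pathways too.

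The genes that LEF1 or TCF7 are known to act on or with in lymphocytes gave 10 tested of 20, with 2 called higher and 7 lower, and a median difference of -2.31. RAG2, the partner recombinase of RAG1, was at 0.516, 0 and 0.580 FPKM in LY19Y646F and at 65.1, 80.8 and 84.2 FPKM in LY19WT (limma adjusted p = 4.7e-05). DNTT, the terminal transferase, fell to 0.0703 ± 0.0193 FPKM in LY19Y646F, against 120.1 ± 43.4 FPKM in LY19WT (SD, n = 3 each, limma adjusted p = 4.6e-05). TOX, a nuclear protein of developing lymphocytes, fell to 0.0249 ± 0.00623 FPKM in LY19Y646F, against 4.25 ± 0.463 FPKM in LY19WT (limma adjusted p = 0.00014). RUNX3, a transcription factor of mature lymphocytes, was at 22.03, 17.1 and 15.0 FPKM in LY19Y646F and at 0, 0 and 0.00926 FPKM in LY19WT (limma adjusted p = 5.1e-05). RAG2 and DNTT are also in the precursor B cell list given above, and the part of that wider difference in this list was not tested. The LEF1 level overlapped between the lines, with an interval from -0.83 to 0.70, and its part in the values of these lymphocyte genes was not tested.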

How the data were processed

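PolyA-selected RNA was sequenced in 6 libraries, 3 from LY19Y646F and 3 from LY19WT, with a stranded single-end protocol, per the labels' protocols. STAR 2.5.3a, Cufflinks 2.2.1 and Cuffdiff 2.2.1 on hg19 are named in the submitters' processing notes. The authors deposited a table of FPKM per gene for each library, and a table of mean FPKM and log2 fold change per gene for the 2 lines, per the file headers. Fragment totals are not in those tables, so depth per library is unknown and the replicate spread sets the precision. Summed FPKM ranged from 806102 to 1020941, and the 10 highest rows held 27.5% of it in LY19WT replicate 3 and 5.71% to 9.38% elsewhere. The labels do not say that the replicates came from separate cultures, so p-values measure only the spread between these libraries.

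Rows were joined by symbol. A row counted for its only protein-coding name, and symbols without such a row in every library, or whose row failed, were dropped (8997 of 56584). Those averaging 0.5 FPKM or more over the 6 libraries were tested with limma 3.58.1 (R 4.3.3) as log2(FPKM + 1) values (eBayes with trend, two-sided, Benjamini-Hochberg over all 10667 genes, threshold 0.05), which was tested on simulated data. This scale understates the change of low genes. Gene types, lengths and neighbours came from GENCODE 29, and coordinates are hg19 from the files unless GRCh38 is named. Exact permutation tests used scipy 1.17.1.

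Replicate numbers come from the sample titles. Deviations from the line means correlated at r of 0.276, 0.112 and 0.140 across genes for same-numbered libraries, and at no more than 0.0998 for the others. These values come from the same data and only that of replicate 1 stood well apart, so they cannot show that the libraries were paired. The block is therefore an alternative setting. Blocked values are given for the tested members and the merged rows, whether or not they changed a call, and for other genes where they changed a call. The genes, lists and tests were chosen with earlier results of these data known. Beside EZH2 and the 8 members, the text names in each list up to 4 genes with the smallest adjusted p, first from the direction with more calls, then 1 from the other, the 3 nearest genes in level to a member, and markers above 1 FPKM in a library. A list gene that this rule selects is not reported here. For TCF7, listed at 0, no nearest genes were computed. Protein sequences were not used here.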

Additional observations from a re-analysis of the deposited data

How the results depend on the processing

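The count of called members went from 0 to 1 under the replicate block, with library weights, with merged rows counted and without replicate 1 of both lines, the last chosen after seeing the data. The member called was TCF7L2 in the first, second and last of these, and AXIN2 with merged rows. For TCF7L2 the difference was -0.813 with the replicate block (limma adjusted p = 0.020), -0.741 with library weights (0.034) and -0.763 without replicate 1 of both lines (0.029), and limma gave an adjusted p of 0.22 with merged rows counted. For AXIN2 the row difference of 0.675 had a limma adjusted p of 0.026 with merged rows counted and 0.013 with no filter as well, and it was 1.828 with a pseudocount of 0.1. TCF7L1 had 0.367 with that pseudocount, against 0.096. Leaving out 1 library at a time moved LEF1 between -0.294 and 0.174: it turned to 0.174 without LY19Y646F replicate 1 and 0.108 without LY19WT replicate 3. Library weights, which were 0.211 for LY19Y646F replicate 1 and 0.361 for LY19WT replicate 1, raised the tested genes called to 5752 (2918 higher and 2834 lower) against 3548. The replicate block gave 3863, and changed no other call of a gene named in the report that had a row of its own. All 16 alternatives kept the 31 called list genes within 1.5 times, and 18 of 128 values of single lists moved further. Scaling moved the median of all genes from -0.033 to -0.118 (median ratio) and 0.046 (quantile). Under these scalings LEF1 stood at -0.174 and -0.188, CTNNB1 at -0.201 and -0.220, and TCF7L2 at -0.892 and -0.552, all uncalled. Why these values moved was not tested. With no fragment counts, low levels carry no detection limit.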
